A study of Rattus norvegicus with 6 samples.

Results

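Amino acid transporters of 7 solute carrier (Slc) families were compared in UMR106-01 cells, a rat osteosarcoma line with properties of osteoblasts, cultured with and without the serine protease inhibitor AEBSF. The members were all probe sets whose platform annotation gives exactly 1 gene symbol of the families Slc1, Slc3, Slc6, Slc7, Slc36, Slc38 and Slc43, leaving out Slc7a11. This gave 68 of 31042 probe sets, standing for 50 of 14217 genes. In the treated group, 3 cultures were given fresh medium 64 h after seeding, holding 10% fetal bovine serum, 6.5 mM beta-glycerol phosphate and 400 µM AEBSF. The 3 mineralizing cultures received the same medium without AEBSF, so both groups carried the phosphate source, and all 6 were collected at 76 h, after 12 h. The cells are 1 tumour-derived line, and the labels do not say whether the cultures came from separate platings. The p-values therefore cover no spread beyond that between these cultures. For each probe set the test (limma) combines its own spread with that of probe sets of similar signal.

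Slc1 carriers couple uptake of glutamate, aspartate or small neutral amino acids to sodium. Slc3 proteins are heavy chains that pass the membrane once and bring the Slc7 light chains, which do the transport, to the cell surface. Slc6 carriers take up neurotransmitters, glycine, proline, taurine and creatine, Slc36 carriers use protons, and Slc38 carriers move glutamine, alanine and other small neutral amino acids. In mouse osteoblasts, uptake of proline, glutamine and asparagine through Slc38a2 and Slc1a5 feeds the synthesis of collagen, which is rich in glycine and proline. Many of these genes are induced by the transcription factor Atf4 when amino acids run short. Slc7a6os, which the rule takes in by its symbol, is the gene on the strand opposite Slc7a6 and encodes no transporter, and the Slc6 family also holds monoamine carriers.

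Each array gave 1 MAS5 signal per probe set, and 37 member probe sets, standing for 26 of the 50 genes, were bright enough to be tested. A probe set was tested where its geometric mean signal exceeded 67.2 (the 40th percentile of such means), and each gene takes its value from the brightest of its probe sets. Values below are signals on each array, group means ± SD (n = 3 cultures each), and log2 fold changes (AEBSF minus mineralizing) with the standard error (SE) and Benjamini-Hochberg adjusted p from limma over all 18625 tested probe sets. Signals of different probe sets are compared only to choose or rank them by brightness and in sums of cell type markers. In a culture, fewer cells expressing a gene and less RNA per cell cannot be told apart.

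Of the 26 tested member genes, 4 fell with AEBSF, 2 rose and 20 did not pass an adjusted p of 0.05. The falls were in Slc36a2 and Slc6a9, which carry glycine, Slc7a7, a light chain for cationic amino acids, and Slc1a3, a glutamate carrier. The rises were in Slc38a3, a glutamine carrier, and Slc6a8, which takes up creatine. All 6 changes were under 2-fold, from 1.28-fold for Slc1a3 to 1.73-fold for Slc36a2. Among all 9864 tested genes the background was 16.3% called, 9.22% lower and 7.09% higher, against 23.1% of the tested members. At the level of probe sets, 6 members fell and 2 rose of 37, where 13.4% of all tested probe sets were called, 7.41% lower and 5.99% higher. With arrays scaled to spiked-in hybridization controls the split was 8 lower and 0 higher among the members, and 1535 lower and 61 higher over all genes, against 909 and 699 with the signals as deposited. The members' count was 1 gene without AEBSF culture 1, mineralizing culture 1 or mineralizing culture 3. It was 2 without AEBSF culture 2, 4 without mineralizing culture 2 and 5 without AEBSF culture 3. The 1608 calls among all genes became 1065, 1191 and 1456 without AEBSF cultures 1, 2 and 3. Without mineralizing cultures 1, 2 and 3 they became 789, 823 and 987.

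Small shifts below 0 were common among the members. Of the 26 log2 fold changes 18 lay below 0 (69.2%), against 49.7% of all tested genes, and their median was -0.12, against 0.0025. The 3 AEBSF values lay entirely below the 3 mineralizing values in 11 members and entirely above them in 5, where 19.1% and 17.0% of all tested genes (36.1% in all) had such separate groups. No test was made of these counts, since the members were chosen with results of these data known. With the hybridization scaling the median of all genes moved to -0.14 and that of the members to -0.26, so a direction given here is relative to the bulk of the genes.

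**Figure D1:**
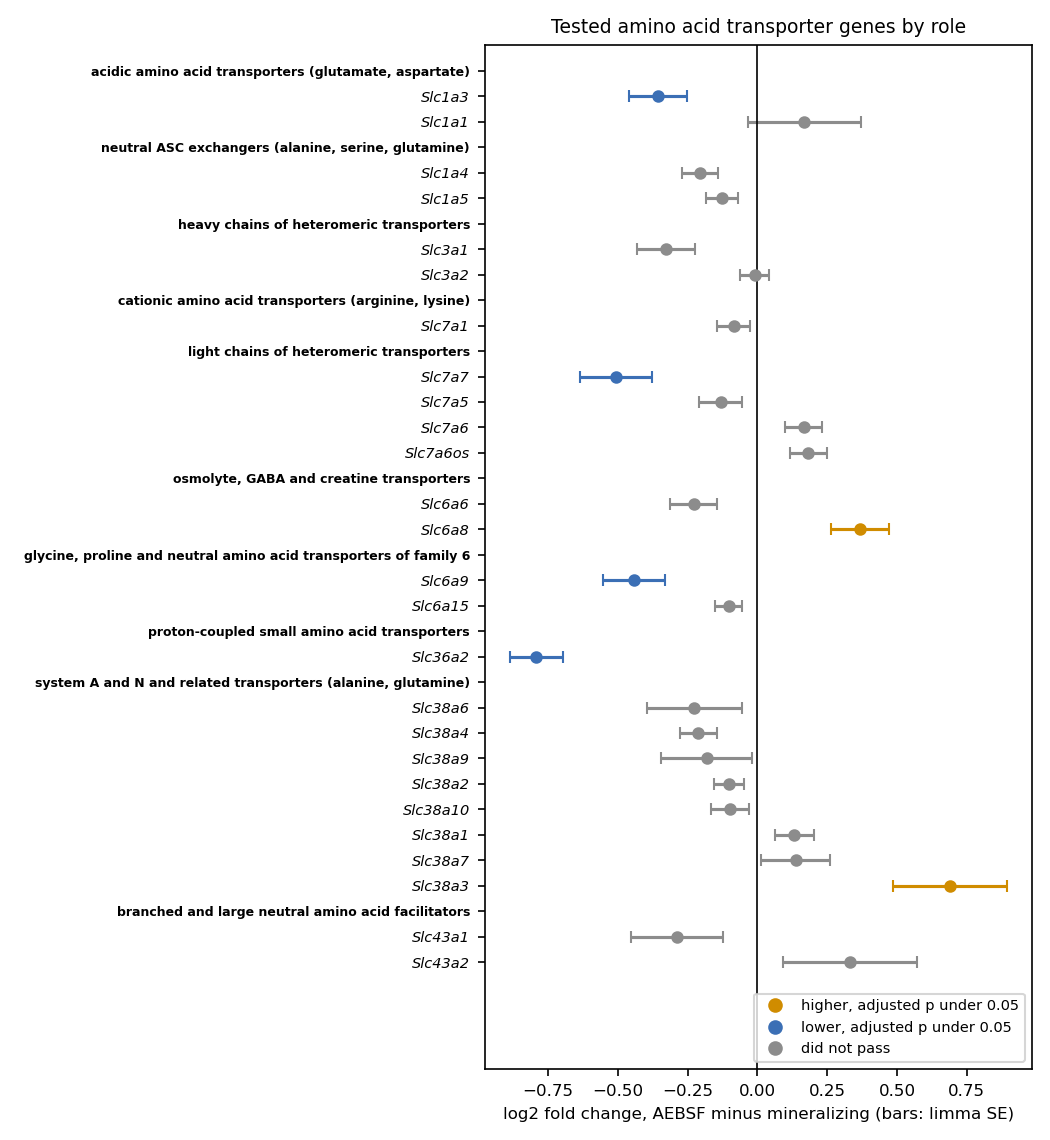
Log2 fold change of each of the 26 tested member genes (horizontal axis, AEBSF minus mineralizing, bars show the limma SE), grouped by role down the page. Slc7a6os, which encodes no transporter, is drawn with the light chains. Slc36a2 lies farthest below 0 at -0.79 and Slc38a3 farthest above at 0.69, and 20 genes drawn in grey did not pass.

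Among glycine and proline carriers, Slc36a2 had the largest change of all tested members. It encodes a proton-coupled carrier of glycine, proline and alanine, and lies on chromosome 10, as do its relatives Slc36a1 and Slc36a3. Slc36a2 signals were 317, 339 and 346 in the AEBSF cultures, against 579, 623 and 536 in the mineralizing cultures. The groups were far apart, with 334 ± 15.3 with AEBSF and 579 ± 43.4 in mineralizing cultures (limma log2 fold change -0.79, SE 0.10, adjusted p = 0.000539). This was the only tested member of its family and passed in all 17 alternatives. Slc36a1, which returns amino acids from lysosomes, had signals between 29.7 and 90.4 and Slc36a3 between 10.5 and 45.7, both below the signal filter.

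Slc6a9, the glycine transporter GlyT1, was read by 3 probe sets, and all 3 fell. The probe set with the highest signal gave 704, 821 and 743 with AEBSF, against 1029, 866 and 1208 in mineralizing cultures. Its groups did not overlap, although the mineralizing cultures ranged widely (756 ± 59.6 with AEBSF and 1034 ± 171 in mineralizing cultures; limma log2 fold change -0.44, SE 0.11, adjusted p = 0.0218). The other probe sets had log2 fold changes of -0.37 (SE 0.11, adjusted p = 0.0412) and -0.60 (SE 0.16, adjusted p = 0.0276). The brightest probe set did not pass without AEBSF culture 1 or mineralizing culture 1 or 3 (limma adjusted p = 0.0705, 0.0705 and 0.0791), nor with a constant variance prior (0.105). Slc6a15, which carries proline and branched-chain amino acids, had 4874, 5022 and 4756 with AEBSF, against 5207, 5204 and 5327 in mineralizing cultures. Its groups were separate, but the difference was small and did not pass (limma log2 fold change -0.10, SE 0.05, adjusted p = 0.195).

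**Figure D2:**
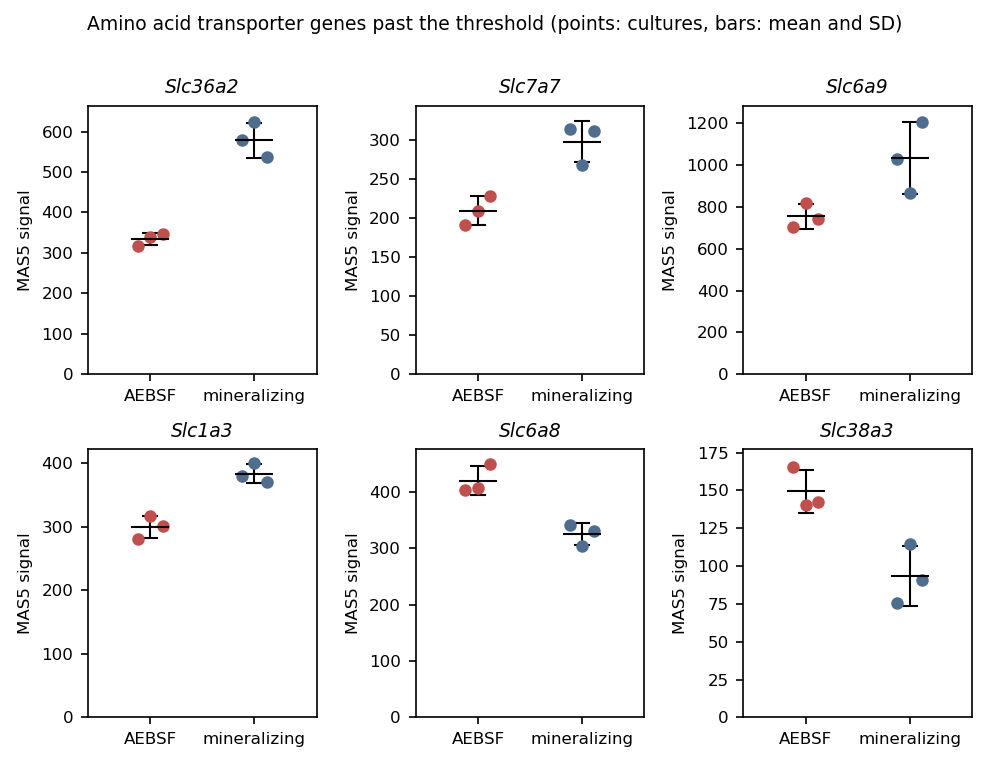
MAS5 signal (vertical axes, from 0) of the 6 transporter genes that passed, 1 point per culture, with AEBSF at the left and mineralizing at the right of each panel; the bars are mean and SD. In none of the 6 panels do the groups overlap, and Slc36a2 has the widest gap, with 317 to 346 in AEBSF cultures and 536 to 623 in mineralizing cultures.

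Of the tested light chains that pair with Slc3a2, the heavy chain also known as CD98, Slc7a7 fell, while Slc7a5 and Slc7a6 did not pass. Slc3a2 itself had signals of 5524, 5285 and 5509 with AEBSF, against 5411, 5668 and 5356 in mineralizing cultures. The groups overlapped in part, with 5440 ± 134 with AEBSF and 5478 ± 167 in mineralizing cultures (limma log2 fold change -0.01, SE 0.05, adjusted p = 0.923). Slc7a7, the y+L light chain that exports arginine and lysine and is lost in human lysinuric protein intolerance, fell. It had 191, 210 and 228 with AEBSF, against 315, 268 and 311 in mineralizing cultures. Its groups did not overlap, at 210 ± 18.5 with AEBSF and 298 ± 25.8 in mineralizing cultures (1.42-fold lower, limma log2 fold change -0.51, SE 0.13, adjusted p = 0.025). That call was lost without AEBSF culture 1 or 2 or mineralizing culture 1 or 3 (limma adjusted p = 0.0783, 0.0503, 0.0984 and 0.0805).

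The other y+L light chain, Slc7a6, had signals of 1580, 1517 and 1469 with AEBSF, against 1281, 1338 and 1454 in mineralizing cultures. All AEBSF values were above the mineralizing ones, by little, and the difference did not pass (limma log2 fold change 0.17, SE 0.07, adjusted p = 0.124). Its opposite-strand neighbour on chromosome 19, Slc7a6os, had a similar value of 0.18 (SE 0.07, limma adjusted p = 0.0954), from 1439, 1564 and 1637 with AEBSF and 1316, 1349 and 1421 in mineralizing cultures. Slc7a5, the leucine carrier LAT1, gave 1263 ± 98.4 with AEBSF and 1383 ± 98.3 in mineralizing cultures, with overlapping groups (limma log2 fold change -0.13, SE 0.08, adjusted p = 0.292). Slc3a1, the heavy chain of the kidney cystine carrier, had 333, 377 and 355 with AEBSF, against 471, 404 and 461 in mineralizing cultures. These groups were separate and the difference narrowly missed the threshold (limma log2 fold change -0.33, SE 0.10, adjusted p = 0.0581). It passed with the hybridization scaling, a filter at the 60th percentile or averaged probe sets (0.024, 0.0477 and 0.0465). Its light chain partner Slc7a9 had signals of 1.79 to 16.8 over all 6 arrays, below the filter.

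For cationic amino acids, Slc7a1, the main arginine and lysine carrier of many cells, was read by 3 probe sets. The brightest gave 8862, 8096 and 8827 with AEBSF, against 8564, 9385 and 9393 in mineralizing cultures. The groups overlapped, at 8595 ± 432 with AEBSF and 9114 ± 476 in mineralizing cultures (limma log2 fold change -0.08, SE 0.06, adjusted p = 0.38). The other probe sets gave log2 fold changes of -0.15 and -0.15 (limma adjusted p = 0.126 and 0.261). The Slc7a1 value passed after quantile normalization (log2 fold change -0.15, limma adjusted p = 0.0431). The relatives Slc7a2, Slc7a3, Slc7a4 and Slc7a14 lay below the filter, with signals between 1.82 and 64.8.

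Among acidic carriers, Slc1a3, the glutamate and aspartate carrier first studied in brain glia, fell by its brightest probe set. Its signals were 281, 316 and 301 with AEBSF, against 379, 399 and 371 in mineralizing cultures. The groups did not overlap, at 299 ± 17.6 with AEBSF and 383 ± 14.8 in mineralizing cultures (1.28-fold lower, limma log2 fold change -0.36, SE 0.10, adjusted p = 0.0428). The other probe sets of Slc1a3 did not pass and differed in sign, with log2 fold changes of -0.43 (SE 0.25) and 0.10 (SE 0.17), and their mean with the first gave -0.23 (limma adjusted p = 0.303). The call was lost without each of the 6 cultures in turn, with limma adjusted p between 0.0517 and 0.146. Over all alternatives it held in 6 of 17. Slc1a1, the glutamate carrier EAAC1, had 92.1 ± 2.10 with AEBSF and 81.9 ± 2.59 in mineralizing cultures, separate groups close to the signal filter (limma log2 fold change 0.17, SE 0.20, adjusted p = 0.627). Slc1a2 and Slc1a6, carriers of neurons and glia, lay below the filter, at 1.90 to 61.3.

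The neutral exchangers Slc1a4 and Slc1a5, which swap small neutral amino acids such as alanine and serine, both gave values below 0 and did not pass. Slc1a4 had 1679, 1614 and 1806 with AEBSF, against 1937, 2077 and 1868 in mineralizing cultures. Every AEBSF value was lower (limma log2 fold change -0.21, SE 0.07, adjusted p = 0.0574), and the value passed without AEBSF culture 3 (0.0339), with the filter at the 60th percentile (0.0408), with the hybridization scaling (0.0114) and in the fit on gene means (0.0493). Slc1a5, the glutamine carrier ASCT2, had 1993, 1947 and 1910 with AEBSF, against 2241, 2020 and 2133 in mineralizing cultures. Its groups were separate by a narrow gap (limma log2 fold change -0.13, SE 0.06, adjusted p = 0.18).

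Of the 8 tested Slc38 genes, 1 rose and 7 did not pass. This was 12.5% called, against 16.3% of all tested genes, of which 7.09% were higher. Slc38a3, the system N carrier SNAT3 that moves glutamine in either direction, had 166, 140 and 142 with AEBSF, against 75.3, 115 and 90.9 in mineralizing cultures. The groups did not overlap, at 149 ± 14.2 with AEBSF and 93.7 ± 19.9 in mineralizing cultures (1.61-fold higher, limma log2 fold change 0.69, SE 0.20, adjusted p = 0.044). The call was lost without AEBSF culture 1, 2 or 3 or mineralizing culture 1 or 3 (limma adjusted p = 0.134, 0.0685, 0.0733, 0.15 and 0.0982), and with the hybridization scaling (0.11). It was also lost with no filter, a constant variance prior or a replicate block, and held in 7 of the 16 alternatives that tested it. The other system N member, Slc38a5, lay below the filter, with 65.0, 75.5 and 65.7 in AEBSF cultures and 45.3, 44.7 and 49.4 in mineralizing cultures. Its groups also did not overlap, but with no filter the difference did not pass (log2 fold change 0.56, limma adjusted p = 0.36).

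System A, the sodium-coupled uptake of alanine, glutamine and proline, is formed by Slc38a1, Slc38a2 and Slc38a4. Slc38a2, the member that amino acid shortage induces, had 5584, 5003 and 5422 with AEBSF, against 5810, 5715 and 5638 in mineralizing cultures. The groups were separate by a narrow gap (limma log2 fold change -0.10, SE 0.05, adjusted p = 0.25). Slc38a4 had 1225, 1096 and 1207 with AEBSF, against 1346, 1377 and 1355 in mineralizing cultures. These groups lay farther apart and the value missed the threshold narrowly (limma log2 fold change -0.21, SE 0.07, adjusted p = 0.0519), passing with the filter at the 60th percentile, with the hybridization scaling and in the fit on gene means (0.0383, 0.0165 and 0.0397). The 3 probe sets of Slc38a1 differed in sign, with log2 fold changes of 0.13, -0.11 and -0.31, and none passed (limma adjusted p = 0.242, 0.445 and 0.141). The Slc38a1 value from the brightest probe set turned to -0.014 with the hybridization scaling and that of Slc38a7 to -0.0095. The remaining tested genes of the family had overlapping groups: Slc38a6 at -0.23 (SE 0.17), Slc38a7, a lysosomal glutamine carrier, at 0.14 (SE 0.12), Slc38a9, the lysosomal arginine sensor of mTORC1, at -0.18 (SE 0.16), and Slc38a10 at -0.10 (SE 0.07).

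**Figure D3:**
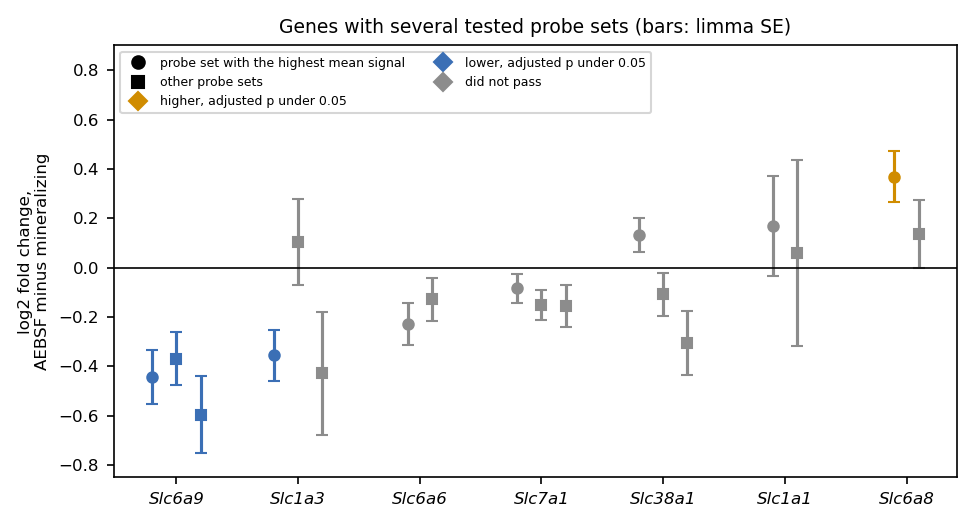
Log2 fold change (vertical axis, AEBSF minus mineralizing, bars show the limma SE) of every tested probe set of the 7 genes with more than 1, circles for the brightest probe set and squares for the others. All 3 probe sets of Slc6a9 lie below 0 and passed, while the probe sets of Slc1a3 and Slc38a1 lie on both sides of 0.

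Carriers of osmolytes and of energy metabolites gave 1 rise. Slc6a8, the creatine transporter, had 402, 407 and 450 with AEBSF, against 341, 304 and 330 in mineralizing cultures. All AEBSF values were higher, at 420 ± 26.1 with AEBSF and 325 ± 18.8 in mineralizing cultures (1.29-fold higher, limma log2 fold change 0.37, SE 0.10, adjusted p = 0.0355), while a second probe set did not pass (log2 fold change 0.14, SE 0.14, adjusted p = 0.565). The call was lost without each of the 6 cultures in turn, with limma adjusted p between 0.0589 and 0.127, and with the hybridization scaling (0.32). Over all alternatives it held in 6 of 17. Slc6a6, the taurine transporter, had 2591, 2156 and 2817 with AEBSF, against 2965, 2985 and 2860 in mineralizing cultures. Its groups were just separate (limma log2 fold change -0.23, SE 0.08, adjusted p = 0.0928), and its second probe set gave -0.13 (adjusted p = 0.365). The Slc6a6 value passed without AEBSF culture 3 (0.0253) and with the hybridization scaling (0.00753).

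The facilitators of family Slc43 had overlapping groups and did not pass. Slc43a1, the branched-chain and large neutral amino acid carrier LAT3, had 175 ± 26.1 with AEBSF and 214 ± 29.6 in mineralizing cultures (limma log2 fold change -0.29, SE 0.16, adjusted p = 0.279). Slc43a2, its relative LAT4, had 127 ± 22.3 with AEBSF and 103 ± 28.0 in mineralizing cultures (limma log2 fold change 0.33, SE 0.24, adjusted p = 0.402).

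**Figure D4:**
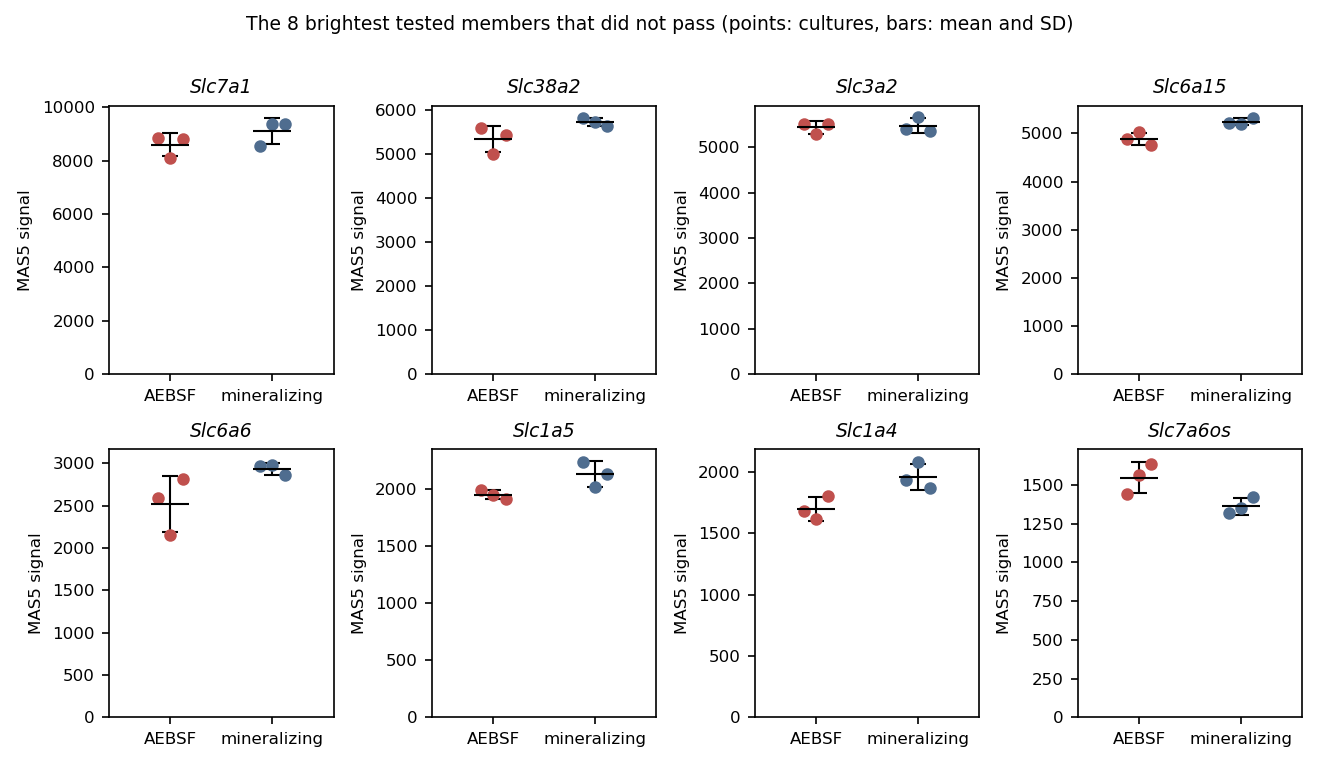
MAS5 signal (vertical axes, from 0) of the 8 tested members with the highest mean signal that did not pass, 1 point per culture, AEBSF at the left and mineralizing at the right of each panel, bars for mean and SD. Differences are small against the signal, as for Slc3a2 with 5285 to 5524 in AEBSF cultures and 5356 to 5668 in mineralizing cultures.

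The 24 genes that were not tested are Slc1a2, Slc1a6, Slc6a2, Slc6a3, Slc6a4, Slc6a5, Slc6a7, Slc6a11, Slc6a13, Slc6a14, Slc6a17, Slc6a18, Slc7a2, Slc7a3, Slc7a4, Slc7a8, Slc7a9, Slc7a10, Slc7a12, Slc7a13, Slc7a14, Slc36a1, Slc36a3 and Slc38a5. Among them are the carriers of noradrenaline (Slc6a2), dopamine (Slc6a3), serotonin (Slc6a4) and GABA (Slc6a11 and Slc6a13). All 31 member probe sets below the filter, which include a second one of Slc43a2, had signals under 100 on every array, between 0.109 and 99.3. With no filter 0 of the 31 passed in limma. In 4 of the 31 (12.9%) the groups did not overlap, against 10.8% of all 12417 probe sets below the filter, a share near the background. The AEBSF values were higher with AEBSF for Slc38a5 and lower for Slc7a9, Slc36a3 and 1 of the 5 probe sets of Slc6a17.

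Members known as targets of Atf4, mostly from mouse and human cells, were compared with the rest. The 9 listed were Slc1a4, Slc1a5, Slc3a2, Slc6a9, Slc7a1, Slc7a3, Slc7a5, Slc38a2 and Slc43a1, chosen with earlier results of these data known. Slc7a3 lay below the filter. The other 8 were tested, and all 8 log2 fold changes lay below 0, from -0.44 for Slc6a9 to -0.01 for Slc3a2. Their median was -0.13. Among all tested genes 49.7% lay below 0. Slc6a9 fell and the other 7 did not pass, which is 12.5% called, against 16.3% of all tested genes. Of the 18 other tested members, which include Slc38a1 at 0.13, 10 lay below 0, and their median was -0.10. The direction of Slc3a2 turned without AEBSF culture 2 or mineralizing culture 2 (log2 fold change 0.010 and 0.015). Nupr1, Trib3 and Ddit3, other genes of the amino acid and stress response, fell by 1.02, 0.37 and 0.32 on the log2 scale among 21 tested genes of that list, in which 0 rose. The share called, 14.3%, was near the 16.3% of all tested genes. The RNA signal of Atf4 itself stood at 13352 ± 643 with AEBSF and 13014 ± 541 in mineralizing cultures (limma log2 fold change 0.04, SE 0.06, adjusted p = 0.714). The amount and activity of Atf4 protein were not measured.

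The upstream sequences of the members were read for the core of the amino acid response element, a site for Atf4 and its partners, spelled TGATGNAA on either strand. RefSeq promoters (build GRCr8) were matched by gene ID for 38 of the 50 genes, and the 250 bases before the annotated start were searched. The motif stood in 3 of the 38, Slc1a4, Slc7a1 and Slc38a1, and in 1139 of 33469 promoters of all genes (3.40%). It began 235, 30 and 142 bases before the start. None of the 5 matched members that passed held it in this window, which tells little where 3.40% of all promoters do. Sites outside the window are not covered, so a gene without a match may still hold the element. The 3 sequences with the motif (in capitals) and, to set beside them, those of the glycine carriers Slc36a2 and Slc6a9, which fell, read 5′ to 3′ as follows.
Slc1a4, chr14:98761563-98761812, minus strand: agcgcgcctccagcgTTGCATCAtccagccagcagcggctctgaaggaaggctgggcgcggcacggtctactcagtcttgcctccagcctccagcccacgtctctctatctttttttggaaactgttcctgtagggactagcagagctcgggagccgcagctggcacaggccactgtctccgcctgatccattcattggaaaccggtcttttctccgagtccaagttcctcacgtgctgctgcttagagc
Slc7a1, chr12:11664238-11664487, plus strand: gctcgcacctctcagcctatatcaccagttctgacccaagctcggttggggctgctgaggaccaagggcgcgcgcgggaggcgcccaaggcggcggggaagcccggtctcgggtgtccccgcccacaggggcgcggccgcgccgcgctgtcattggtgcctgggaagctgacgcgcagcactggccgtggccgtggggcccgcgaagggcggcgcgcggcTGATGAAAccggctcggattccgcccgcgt
Slc38a1, chr7:129681402-129681651, minus strand: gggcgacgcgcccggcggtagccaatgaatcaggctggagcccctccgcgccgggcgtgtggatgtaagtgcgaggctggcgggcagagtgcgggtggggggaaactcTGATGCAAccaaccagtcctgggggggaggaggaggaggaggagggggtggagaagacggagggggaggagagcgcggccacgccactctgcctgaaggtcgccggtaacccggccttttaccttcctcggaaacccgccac
Slc36a2, chr10:39806774-39807023, minus strand: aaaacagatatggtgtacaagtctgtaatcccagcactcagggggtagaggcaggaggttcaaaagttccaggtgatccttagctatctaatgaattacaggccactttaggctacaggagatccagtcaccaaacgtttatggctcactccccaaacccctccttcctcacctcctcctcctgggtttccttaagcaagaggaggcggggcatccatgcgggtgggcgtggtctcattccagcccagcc
Slc6a9, chr5:136659826-136660075, plus strand: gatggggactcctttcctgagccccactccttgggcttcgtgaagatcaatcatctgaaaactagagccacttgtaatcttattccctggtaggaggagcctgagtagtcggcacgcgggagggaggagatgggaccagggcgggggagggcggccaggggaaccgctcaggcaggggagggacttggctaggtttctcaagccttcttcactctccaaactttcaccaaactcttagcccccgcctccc
The 3 genes with the motif did not pass, with log2 fold changes of -0.21, -0.08 and 0.13 for Slc1a4, Slc7a1 and Slc38a1, and a match of letters does not show that a factor binds there.

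Of 22 tested enzymes that make non-essential amino acids, 6 fell and 0 rose, with a list median of -0.07. This was 27.3% called, against 16.3% of all tested genes, of which 9.22% were lower. Oat, which links ornithine with glutamate and proline, had 1971, 1682 and 2083 with AEBSF, against 2763, 2725 and 2726 in mineralizing cultures. All AEBSF values were well below the others (limma log2 fold change -0.52, SE 0.07, adjusted p = 0.00117). Aldh18a1, which starts proline synthesis from glutamate, had 1307 ± 73.7 with AEBSF and 1766 ± 85.8 in mineralizing cultures (limma log2 fold change -0.44, SE 0.07, adjusted p = 0.00182). Cth, which makes cysteine from cystathionine, had 1017 ± 24.8 with AEBSF and 1423 ± 92.5 in mineralizing cultures, and asparagine synthetase (Asns) had 2991 ± 132 with AEBSF and 3964 ± 157 in mineralizing cultures (log2 fold changes -0.48 and -0.41, limma adjusted p = 0.00114 and 0.00105). Psph and Gpt2, which make serine and alanine, also fell, by 0.39 and 0.27 on the log2 scale.

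Among other carriers and genes of amino acid sensing, 5.26% and 6.45% of the tested genes were called, against 16.3% of all tested genes. Of 19 tested carriers outside the 7 families, Slc66a1, which exports cationic amino acids from lysosomes, rose and 0 fell. It had 486, 602 and 568 with AEBSF, against 347, 442 and 398 in mineralizing cultures, with separate groups (limma log2 fold change 0.48, SE 0.12, adjusted p = 0.0192). The Slc66a1 call was lost without AEBSF culture 2 or mineralizing culture 1 (limma adjusted p = 0.061 and 0.0818), with its probe sets averaged (0.151) and with the hybridization scaling (0.0892). Of 31 tested genes of amino acid sensing by mTORC1, Nprl2, a subunit of the complex that restrains mTORC1 when amino acids are low, fell. It had 728, 767 and 724 with AEBSF, against 1060, 1057 and 1251 in mineralizing cultures, far apart (limma log2 fold change -0.60, SE 0.08, adjusted p = 0.000905). Lamtor5, a subunit of the lysosomal Ragulator complex, rose (limma log2 fold change 0.21, SE 0.06, adjusted p = 0.0326), a call lost without AEBSF culture 1 or 2 or mineralizing culture 1, 2 or 3 (0.0544, 0.093, 0.0834, 0.126 and 0.067) and with the hybridization scaling (0.728). Of 11 tested partners and regulators of the carriers 0 passed in limma and 1 had an unadjusted p under 0.05. The ligase gene Nedd4 stood at 11114 ± 196 with AEBSF and 10988 ± 642 in mineralizing cultures, and Bsg at 6944 ± 70.0 with AEBSF and 7111 ± 337 in mineralizing cultures (limma adjusted p = 0.868 and 0.722).

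**Figure D5:**
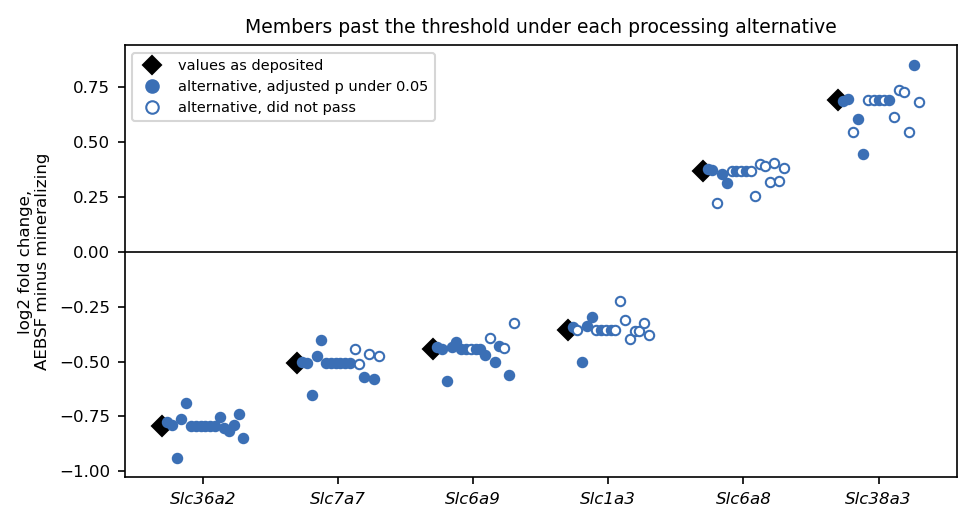
Log2 fold change (vertical axis, AEBSF minus mineralizing) of the 6 transporter genes that passed, as a black diamond for the values as deposited and circles for 17 alternatives, filled where the adjusted p stayed under 0.05. Slc36a2 is filled throughout, between -0.94 and -0.69, while Slc1a3 and Slc6a8 have 11 open circles each.

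Facts of the arrays that stand beside these results are as follows. The trimmed mean signal was 500.0 on every array, and at most 2 probe sets had equal values in any pair of arrays. The ratio of 3′ to 5′ signal of the Gapdh control was 1.05 to 1.08 on AEBSF arrays and 1.02 to 1.06 on mineralizing arrays, and the geometric mean of the hybridization controls was 2041 to 2277 on AEBSF arrays and 1803 to 2047 on mineralizing arrays. Of 11 osteoblast markers, 8 were tested, with summed signals of the 9 measured at 26650 to 27822 with AEBSF and 29319 to 30926 in mineralizing cultures. Most of each sum was Ibsp, at 17101 ± 251 with AEBSF and 16520 ± 750 in mineralizing cultures. Of the 8 tested, Col1a2, Phex and Col1a1 fell, by 1.13, 0.73 and 0.67 on the log2 scale (limma adjusted p = 1.27e-05, 3.36e-05 and 0.00116), and 0 rose. The share called was 37.5%, against 16.3% of all tested genes, where 9.22% were called lower. Ibsp, Alpl, Sparc, Pth1r and Spp1 did not pass. Bglap lay below the filter; Runx2 and Sp7 are not analysed here. Summed markers of neurons and glia were 418 to 558 with AEBSF and 522 to 592 in mineralizing cultures, and those of macrophages 225 to 237 with AEBSF and 261 to 349 in mineralizing cultures; 4 of 6 and 5 of 6 of these markers lay below the filter. Markers of epithelia summed to 143 to 157 with AEBSF and 130 to 209 in mineralizing cultures, and those of muscle and fat to 121 to 283 with AEBSF and 193 to 253 in mineralizing cultures. Of these markers, too, 4 of 5 and 5 of 6 lay below the filter. The part of these levels in the results was not tested.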

How the data were processed

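RNA of each of the 6 cultures was biotin-labelled in 1 cycle and hybridized to 1 Affymetrix rat array, per the labels' protocols. The deposited intensity values are MAS5 signals; the submitters' processing notes name GCOS. They cover 31099 probe sets, 57 of them controls. Software versions and the scaling target were not given in the sources. The trimmed mean (2% left out at each end) of the deposited signals was equal on all arrays, so they hold no measure of total RNA.

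Probe sets were named from the platform annotation: 20826 had exactly 1 symbol, 436 several and 9780 were unnamed here. Symbols of 20758 were updated through the Entrez ID (RefSeq, GRCr8). Signals were tested as log2 with limma 3.58.1 in R 4.3.3 (lmFit, eBayes, trend by mean signal), Benjamini-Hochberg over 18625 probe sets, threshold 0.05. The script was checked on simulated data. Groups and replicate numbers came from the sample titles. Correlations of deviations between same-numbered cultures were 0.011, -0.119 and -0.036, so the numbers were not used as pairs.

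The members and gene lists were chosen with earlier results of these data known. Every tested member was named. From each other list the text names up to 4 called genes by size of change, or, where none passed, 2 with the highest signal. Psph, Gpt2, Pycr3, Phgdh, Shmt2, Got2, Atf4 and the 8 tested osteoblast markers were added after their values were seen. Alternatives were 3 normalizations, constants of 16 and 64 added before log2, no filter or the 60th percentile, 2 variance priors, a replicate block, gene means and leaving out each array. Promoter sequences are from RefSeq. Precision is limited by the 3 arrays of each group.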

Additional observations from a re-analysis of the deposited data

How the results depend on the processing

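Of the 6 transporter genes that passed, Slc36a2 kept its call in 17 of 17 alternatives, Slc6a9 and Slc7a7 in 13, Slc38a3 in 7 of the 16 in which it was tested, and Slc1a3 and Slc6a8 in 6 of 17; none of the 6 changed direction. Over the 26 tested members and all alternatives, 379 values kept direction and side of the threshold, 39 lost a call, 13 gained one and 5 changed sign. The sign changes were Slc38a1 with the hybridization scaling and with gene means (-0.014 and -0.094), Slc38a7 with the hybridization scaling (-0.0095), and Slc3a2 without AEBSF culture 2 or mineralizing culture 2 (0.010 and 0.015; -0.026 to 0.015 over the 6 arrays left out). Outside the members, Nedd4 changed sign after quantile normalization, with the hybridization scaling, with gene means and without mineralizing culture 1 (-0.066, -0.13, -0.18 and -0.031; -0.031 to 0.047 over the 6 arrays left out), and Bsg without mineralizing culture 3 (0.0055, against -0.057 without mineralizing culture 1). The causes were not tested.

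The number of members past the threshold (6 genes and 8 probe sets) was 3 and 3 with no filter, 2 and 2 with a constant variance prior, and 3 and 4 with a replicate block. Members higher with AEBSF (2 genes, 2 probe sets) were 0 and 0 with the hybridization scaling, no filter, a constant variance prior or the replicate block, 1 and 1 at the 60th percentile, and 1 gene with gene means. Members lower with AEBSF (4 genes, 6 probe sets) were 8 and 12 with the hybridization scaling, 3 and 3 with no filter, 2 and 2 with a constant prior and 7 genes with the 60th percentile, and 6 genes with gene means. Leaving out 1 array gave 1 to 5 member genes (0 to 1 higher, 1 to 5 lower) and 1 to 5 member probe sets (0 to 1 higher, 1 to 5 lower). Over all genes the counts of 1608 genes and 2495 probe sets became 544 and 885 with a constant prior, and 789 to 1456 and 1200 to 2250 without 1 array. The hybridization scaling split the probe sets into 119 higher and 2457 lower, against 1115 and 1380.

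Carriers outside the 7 families (1 call) gave 3 with the hybridization scaling, 2 with 64 added or a robust prior, 0 with a constant prior or gene means, and 0 to 2 without 1 array. Partners and regulators (0 calls) gave 1 after quantile normalization, with the hybridization scaling or the 60th percentile, 2 with gene means, and 0 to 0 without 1 array. Amino acid sensing (2 calls) gave 1 with median centring, no filter, a constant prior or the replicate block, and 1 to 2 without 1 array. The amino acid response list (3 calls) gave 6 with the hybridization scaling. Known Atf4 targets (1 call) gave 2 after quantile normalization, with the hybridization scaling, the 60th percentile or gene means, 0 with a constant prior, and 0 to 2 without 1 array. The replicate block changed no other list count by over 1.5 times, and the numbers share no source in the labels. Signals near the filter, as for Slc38a3, limit what 3 arrays per group can show.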
